A study of Mus musculus with 4 samples.

Results

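The transcripts of 9 mouse genes that encode RNA-binding factors of messenger RNA decay were followed in sorted follicular B cells with and without the transcription factor Ets1. The 9 were chosen by symbol as the members of 3 families of CCCH zinc finger proteins, out of 23305 genes in each table of expression values, and the rule used no expression value, although earlier results of these data were known when the genes were proposed. They are the regnases Zc3h12a, Zc3h12b, Zc3h12c and Zc3h12d, the roquins Rc3h1 and Rc3h2, and the Zfp36 family members Zfp36, Zfp36l1 and Zfp36l2. RNA came from spleen cells of female mice, 2 wild-type (WT) samples of the C57BL/6 strain and 2 Ets1-/- samples of C57BL/6 x 129Sv mice, with no ages given for these animals. The Ets1-/- mice carry the deletion in every cell, so the B cells developed in a wholly mutant animal, and the strain and the genotype differ together in these libraries and cannot be told apart. Cells were sorted as B220+, CD23 high, CD21 low and negative for CD80 and switched immunoglobulins.

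These factors shorten the life of short-lived transcripts, many of which encode cytokines, signalling proteins and regulators of lymphocyte activation. Regnases are endoribonucleases that cut stem-loops in the 3′ untranslated region (UTR), the stretch that follows the coding sequence. Roquins bind related stem-loops and bring in the CCR4-NOT complex, which removes the poly(A) tail. Zfp36 proteins bind AU-rich elements in the 3′ UTR, whose best-known form is the nonamer TTATTTATT in DNA letters, and also recruit CCR4-NOT. In B cells Zfp36l1 and Zfp36l2 are known for holding developing cells in quiescence, and in activated lymphocytes the protease Malt1 cleaves both the founding regnase and the roquins. Transcripts of the factors themselves carry such elements, and the sequences printed here show the nonamer of every member whose annotated 3′ UTR held one.

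The nonamer was searched on the sense strand of the longest 3′ UTR annotated for each gene in GENCODE M1 (genome build mm9), with overlapping matches counted. Of the 8 members with an annotated 3′ UTR, 5 held it, each exactly 1 time, namely all 3 Zfp36 genes and both roquins. Each line gives the nonamer in capitals between 10 bases of flank on each side, read 5′ to 3′ along the transcript from the mm9 sequence.
Zfp36: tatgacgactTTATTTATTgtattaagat
Zfp36l1: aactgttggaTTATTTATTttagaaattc
Zfp36l2: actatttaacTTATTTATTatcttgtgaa
Rc3h1: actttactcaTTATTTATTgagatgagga
Rc3h2: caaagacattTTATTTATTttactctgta

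The nonamer of Zfp36 began at base 589 of its 3′ UTR (chr7:29161970-29161998, minus strand), that of Zfp36l1 at base 1404 (chr12:81209154-81209182, minus strand) and that of Zfp36l2 at base 821 (chr17:84584254-84584282, minus strand), the coordinates being those of the printed windows. In the roquins it began at base 2256 for Rc3h1 (chr1:162900174-162900202, plus strand) and at base 2095 for Rc3h2 (chr2:37228807-37228835, minus strand). Among all tested genes with an annotated 3′ UTR, 708 of 9688 (7.31%) held at least 1 nonamer, and the share rose with 3′ UTR length from 2.73% under 1000 bases to 24.1% at 5000 bases or more. The 3′ UTRs of Rc3h1 and Rc3h2 are 7181 and 5331 bases long, and those of Zfp36l1 and Zfp36l2 are 1829 and 1822 bases. That of Zfp36 is 774 bases long, a length class in which the nonamer is rare. The shorter core ATTTA, which lies inside the nonamer, was found in every annotated member 3′ UTR, from 2 times in Zc3h12d to 25 times in Rc3h2. Per kilobase of 3′ UTR the core was found 4.92 times in Zfp36l1, 4.69 times in Rc3h2 and 3.88 times in Zfp36, against 1.73 per kilobase over the 3′ UTRs of all tested genes. Zc3h12d, with 0.859 per kilobase, was the member below that value. A match is a description of the letters and says nothing of binding.

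The libraries were described by FPKM, a fragment number divided by transcript length and by the mapped fragments of the library, as deposited by the authors. Read numbers are not part of the files. The depth relative to WT replicate 1 was estimated as the most common ratio of a gene's FPKM in WT replicate 1 to that in the other library. Only genes above 0 and under 0.05 FPKM in both libraries were used. WT replicate 2 stood at 1.71, while the Ets1-/- replicates 1 and 2 stood at 1.65 and 0.850. Within 0.05 of these ratios on the log2 scale lay 28.9%, 29.9% and 41.4% of the genes used. Deeper and shallower refer to this estimate, by which each genotype had 1 library of each kind. Ets1 itself had an FPKM of 231 and 275 in WT and of 229 and 229.8 in Ets1-/- cells, but the value covers the whole gene while the mutation removes part of it, so it does not check the labels. Markers of mature B cells were high in every library, with Ms4a1 between 604 and 689 FPKM. Cd79a had 1923 and 2051 FPKM in WT and 1407 and 1639 FPKM in Ets1-/- libraries. It was the 1 of the 8 tested B cell markers whose genotypes did not overlap, and 22.2% of all tested genes were lower in this way. Markers of neutrophils and monocytes (11 of 12 found) summed to 155 and 110 FPKM in the WT replicates. In the Ets1-/- replicates they summed to 2564 and 725 FPKM. Of the 10 tested, 9 had both Ets1-/- values above both WT values, against 19.4% of all tested genes. Among these, 3 (Ngp, Camp and Ltf) passed both thresholds of the comparison described below. Erythroid markers went from 6.80 and 4.30 FPKM to 65.3 and 28.5 FPKM, while T cell markers summed to between 95.2 and 123 FPKM. In bulk samples a change in the number of cells of a type and a change in RNA per cell cannot be told apart, and the part of these other cells in any result given here was not tested.

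WT and Ets1-/- libraries were compared by limma on log2(FPKM + 1) over 10949 genes, those whose mean FPKM reached 1 in at least 1 genotype. A gene was called where it differed 2-fold or more on that scale and its p-value, adjusted over all tested genes (Benjamini-Hochberg), was 0.05 or less. The comparison asks which transcripts depend on Ets1 in B cells. Across the genes tested, 186 (1.70%) were called, 96 higher and 90 lower in Ets1-/- cells. Of the 9 decay factor genes, 8 passed the filter in both genotypes, Zc3h12b fell below it, and none of the 8 was called by limma with Benjamini-Hochberg adjustment. At an unadjusted p under 0.05 the number was also 0, where 13.3% of all tested genes passed. Adjusted p-values of the 8 ran from 0.507 to 0.993 in limma with Benjamini-Hochberg adjustment. Their log2 fold changes ran from -0.27 to 0.71, with 5 above and 3 below 0 and a median of 0.12, against -0.02 over all tested genes. On the log2(FPKM + 1) scale the 95% interval lay inside a 2-fold change in either direction for 6 of the 8. The exceptions were Rc3h1 and Zc3h12c. The widest of the 6, that of Rc3h2, ran from -0.92 to 0.97, close to that limit. Its standard error of 0.37 rose to 0.41 with 0.1 added to the FPKM in place of 1. Both Ets1-/- values lay above both WT values for 4 members, an arrangement found for 19.4% of all tested genes, and both lay below for 0 of the 8, against 22.2%. A permutation of 2 samples against 2 cannot give a two-sided p below 0.333, so no single member was tested that way, and the p-values measure the spread between these samples only.

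**Figure D1:**
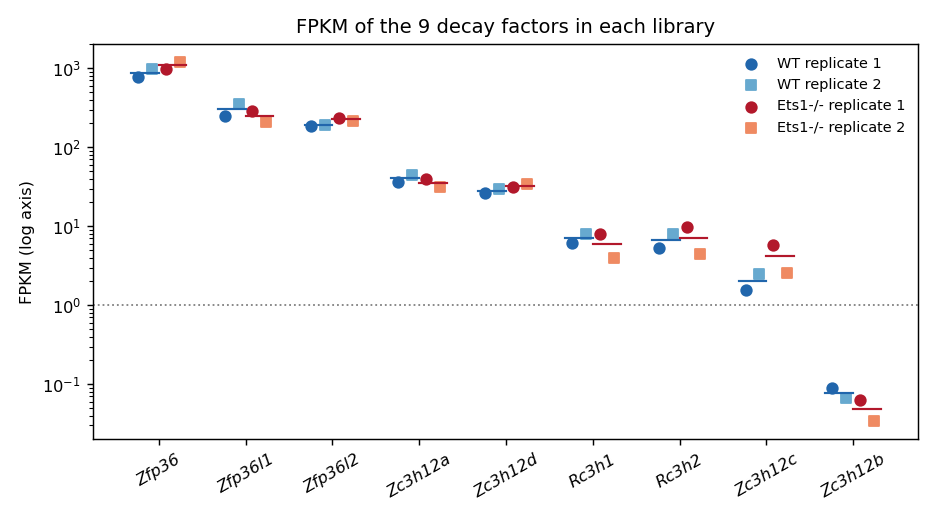
FPKM of the 9 decay factor genes on a log axis, with 1 point per library, bars for the mean of each genotype (n = 2) and a dotted line at an FPKM of 1. The genes span from the Zfp36 values of 774 to 1201 down to Zc3h12b, whose values all lie under 0.1, and Zc3h12c shows 1 library, Ets1-/- replicate 1 at 5.73, above the other 3.

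The Zfp36 family held the most abundant transcripts. Zfp36, also known as tristetraprolin, is induced within minutes of stimulation in many cell types and destabilises transcripts such as Tnf. Its FPKM was 774 and 981 in the WT replicates and 987 and 1201 in the Ets1-/- replicates. Both Ets1-/- values lay above both WT values, but the lower of them lay only just above WT replicate 2. The means were 878 ± 146 FPKM (SD, n = 2) and 1094 ± 151 FPKM (SD, n = 2). They differed by 0.32 on the log2(FPKM + 1) scale (standard error 0.24, 95% interval -0.28 to 0.92), with an adjusted p of 0.699 in limma with Benjamini-Hochberg adjustment. The WT mean stood at percentile 98.6 of the tested genes. The gene covers chromosome 7 from 29161803 to 29164274 on the minus strand of mm9, in 2 exons.

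Zfp36l1, which is known to be needed for marginal zone B cells as well as for early B cell development, lay next in order. Its FPKM was 247 and 357 in WT and 285 and 211 in Ets1-/- libraries. The genotypes overlapped, with the highest value in WT replicate 2 and the lowest in Ets1-/- replicate 2. Means were 302 ± 77.6 FPKM (SD, n = 2) and 248 ± 52.1 FPKM (SD, n = 2), and the log2 fold change of -0.27 (standard error 0.26, 95% interval -0.95 to 0.40) had an adjusted p of 0.795 in limma with Benjamini-Hochberg adjustment. Zfp36l1 lies on chromosome 12 from 81208747 to 81214000 on the minus strand and overlaps the noncoding gene Gm17591 on the plus strand. Whether the authors' estimates used strand is not given in the sources used here, so reads of the pair may not be separated.

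Zfp36l2, the third of the family, had replicates that differed least among the 8 tested members. Its FPKM was 185 and 193 in WT and 233 and 218 in Ets1-/- libraries, without overlap. The means of 189 ± 5.65 FPKM (SD, n = 2) and 225 ± 11.0 FPKM (SD, n = 2) differed by 0.25 on the log2 scale (standard error 0.15, 95% interval -0.14 to 0.64), with an adjusted p of 0.634 in limma with Benjamini-Hochberg adjustment. The difference between the genotypes was thus larger than that between replicates, and it did not pass the test. The gene lies on chromosome 17 from 84583271 to 84587287 on the minus strand, in 2 exons.

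Among the regnases, Zc3h12a and Zc3h12d were well expressed. Zc3h12a encodes the founding regnase, which degrades transcripts of Il6 and Il12b and also its own. Its FPKM was 36.8 and 44.9 in WT and 39.9 and 30.9 in Ets1-/- libraries. The genotypes overlapped, and the deeper library of each was the higher. The log2 fold change was -0.20 (standard error 0.19, 95% interval -0.69 to 0.29), with an adjusted p of 0.789 in limma with Benjamini-Hochberg adjustment, between means of 40.8 ± 5.75 and 35.4 ± 6.36 FPKM (SD, n = 2 each). Zc3h12a lies on chromosome 4 from 124795667 to 124805084 on the minus strand.

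Zc3h12d, a regnase found mainly in lymphoid tissue, ran a little lower. Its FPKM was 26.5 and 29.3 in WT and 31.2 and 33.9 in Ets1-/- libraries. Both Ets1-/- values were above both WT values, with no large gap between them. Means of 27.9 ± 2.01 and 32.6 ± 1.93 FPKM (SD, n = 2 each) gave a log2 fold change of 0.22 (standard error 0.14, 95% interval -0.14 to 0.58) and an adjusted p of 0.647 in limma with Benjamini-Hochberg adjustment. The gene lies on chromosome 10 from 7552268 to 7590195 on the plus strand.

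Zc3h12c had the largest difference of the 8 tested members and a low level. Its FPKM was 1.55 and 2.48 in WT and 5.73 and 2.56 in Ets1-/- libraries. Ets1-/- replicate 1 stood alone at the top, while Ets1-/- replicate 2 lay just above WT replicate 2. The means were 2.02 ± 0.658 and 4.14 ± 2.24 FPKM (SD, n = 2 each), a ratio of 2.05. On the log2(FPKM + 1) scale, which understates changes at such levels, the difference was 0.71 (standard error 0.35, 95% interval -0.18 to 1.61), with an unadjusted p of 0.0962 and an adjusted p of 0.507 in limma with Benjamini-Hochberg adjustment. Without Ets1-/- replicate 2 it was 1.17 (adjusted p = 0.182 in limma with Benjamini-Hochberg adjustment) and without Ets1-/- replicate 1 it was 0.25, so its size rests on Ets1-/- replicate 1, which was also the library with the highest sum of neutrophil and monocyte markers. Zc3h12c lies on chromosome 9 from 51920090 to 51976216 on the minus strand, the chromosome that also holds Ets1, at a distance of 19.4 Mb. The study itself listed Zc3h12c as upregulated in Ets1-/- cells, with a call by Cuffdiff on these same libraries. That call is not independent evidence of its direction. The study set its 2-fold threshold on the Cuffdiff fold change, and the ratio of mean FPKM here was 2.05. In limma the 2-fold threshold applied to log2(FPKM + 1), where the difference of 0.71 lay under it whatever the p-value. Limma did not call the gene here, and its adjusted p also missed the threshold. The study also counted it among genes with an Ets1-binding peak nearby, from separate chromatin immunoprecipitation data that were not examined here.

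Zc3h12b, on the X chromosome from 92907017 to 93127831 on the plus strand, was barely detected. Its FPKM was 0.0891 and 0.0677 in WT and 0.0623 and 0.0339 in Ets1-/- libraries. All of these are far under the filter of 1 FPKM, so no fold change was computed and the order of the libraries is not read. The gene overlaps 1700010D01Rik on the opposite strand, and the annotation used here gave it no 3′ UTR.

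The roquin transcripts were about equally abundant. Rc3h1 encodes the roquin whose sanroque mutation causes systemic autoimmunity in mice through follicular helper T cells. Its FPKM was 6.11 and 8.01 in WT and 7.95 and 3.97 in Ets1-/- libraries. The genotypes overlapped, and Ets1-/- replicate 2, the shallowest library, was the lowest. Means were 7.06 ± 1.35 and 5.96 ± 2.82 FPKM (SD, n = 2 each), and the log2 difference was -0.26 (standard error 0.32, 95% interval -1.07 to 0.55) with an adjusted p of 0.854 in limma with Benjamini-Hochberg adjustment. Without Ets1-/- replicate 2 the difference turned to 0.16. Rc3h1 lies on chromosome 1 from 162836549 to 162905109 on the plus strand, with up to 20 exons.

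Rc3h2, the roquin paralog that overlaps in function with Rc3h1, followed the same order of libraries in Ets1-/- cells. Its FPKM was 5.26 and 8.004 in WT and 9.67 and 4.47 in Ets1-/- libraries. The highest and the lowest of the values were both from Ets1-/- libraries, so the genotypes overlapped fully. The means of 6.63 ± 1.94 and 7.07 ± 3.68 FPKM (SD, n = 2 each) differed by 0.03 on the log2 scale (standard error 0.37, 95% interval -0.92 to 0.97), with an adjusted p of 0.993 in limma with Benjamini-Hochberg adjustment. The direction turned without Ets1-/- replicate 1 (-0.46) and without WT replicate 1 (-0.24). Rc3h2 lies on chromosome 2 from 37225589 to 37278423 on the minus strand and holds the small RNA gene Snord90 within its bounds.

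**Figure D2:**
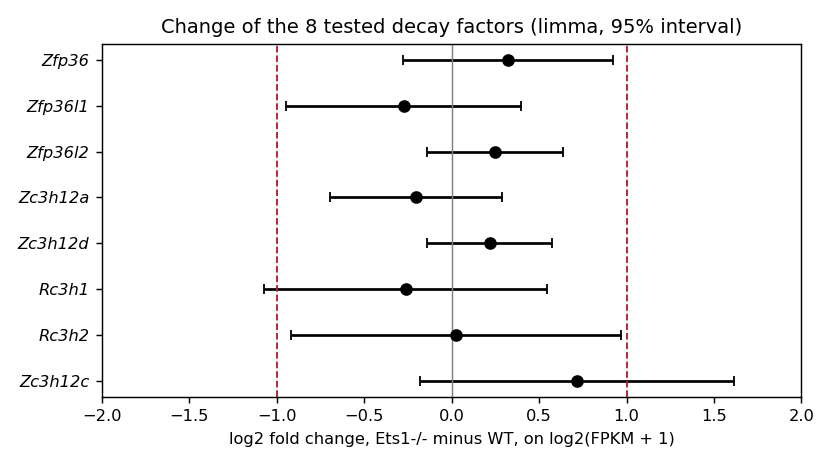
Log2 fold change of Ets1-/- over WT on the log2(FPKM + 1) scale for the 8 tested decay factor genes, with points for the limma estimate, lines for its 95% interval and dashed lines at a 2-fold change. Each interval crosses 0, and those of Rc3h1 and Zc3h12c reach past a 2-fold change.

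Per kilobase of transcript, the levels in WT followed the order Zfp36, Zfp36l1, Zfp36l2, Zc3h12a, Zc3h12d, Rc3h1, Rc3h2, Zc3h12c and Zc3h12b. The values of neighbours in that order did not overlap in WT except for Rc3h1 and Rc3h2. The ratio of the WT means was 2.90 between Zfp36 and Zfp36l1, 1.60 between Zfp36l1 and Zfp36l2, and 4.64 between Zfp36l2 and Zc3h12a. In Ets1-/- cells 4 neighbouring pairs overlapped, namely Zfp36l1 with Zfp36l2, Zc3h12a with Zc3h12d, Rc3h2 with Rc3h1, and Rc3h1 with Zc3h12c. Within each library the Zfp36 family made up 94.1%, 94.3%, 94.1% and 95.6% of the summed FPKM of the 9 genes, in the order of WT replicates 1 and 2 and Ets1-/- replicates 1 and 2. The regnases made up between 3.95% and 5.06%, and the roquins between 0.495% and 1.10%. Zfp36 alone took 60.3% and 60.4% in WT and 61.7% and 70.4% in Ets1-/- libraries, the last of these in the shallowest library.

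Ratios of 2 members within a library do not depend on how the libraries were scaled to each other. Zfp36l1 over Zfp36l2 was 1.33 and 1.85 in the WT replicates and 1.22 and 0.971 in the Ets1-/- replicates. Zfp36 over Zfp36l1 was 3.13 and 2.75 in WT and 3.46 and 5.68 in Ets1-/- libraries. Zc3h12a over Zc3h12d was 1.39 and 1.53 in WT against 1.28 and 0.912, and Rc3h1 over Rc3h2 was 1.16 and 1.00 against 0.822 and 0.887. In each pair the WT values lay to one side of the Ets1-/- values, but these pairs were chosen after their values were seen and carry no test. Of single tested genes, 19.4% and 22.2% were separated in this way with the Ets1-/- values higher and lower, so nothing about the members is read from it.

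Replicates of 1 genotype differed more for some decay factors than the genotypes did. The log2 difference of WT replicate 2 over WT replicate 1 and that of Ets1-/- replicate 1 over Ets1-/- replicate 2, each the deeper library over the shallower, were 0.53 and 0.96 for Rc3h2, 0.45 and 0.92 for Zc3h12c, and 0.34 and 0.85 for Rc3h1. They were 0.53 and 0.43 for Zfp36l1 and 0.28 and 0.36 for Zc3h12a, while Zfp36l2 differed by 0.06 and 0.10. Of the 8 tested members 6 were higher in the deeper library of both genotypes, as were 30.3% of all tested genes, and the members that were not are Zfp36 and Zc3h12d. Median differences were 0.34 and 0.39 over the members against 0.00 and -0.04 over all tested genes. Among genes with an exon length of at least 5000 bases, such as both roquins and Zc3h12c, the medians were -0.02 and 0.06 and the share higher in both deeper libraries was 35.6%. The part of depth and of transcript length in these differences was not tested.

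**Figure D3:**
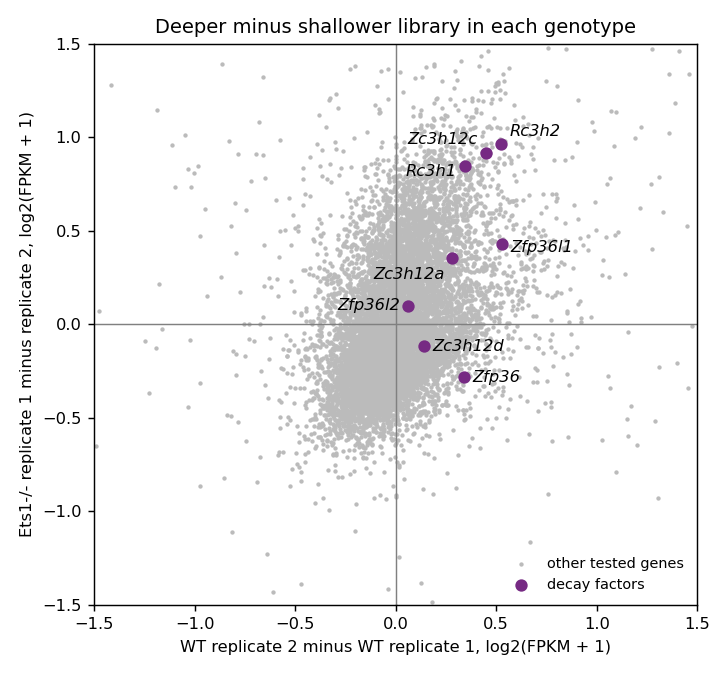
Difference between replicates on the log2(FPKM + 1) scale, WT replicate 2 minus WT replicate 1 on the x axis and Ets1-/- replicate 1 minus Ets1-/- replicate 2 on the y axis, with gray points for tested genes and coloured points for the 8 tested decay factors (205 tested genes lie outside the axes). The points of 6 members sit in the upper right, while Zfp36 and Zc3h12d sit below 0 on the y axis.

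For the 4 members whose log2 values had an SD of at least 0.3 over the 4 libraries, the genes with the most similar profile were looked up by the root mean square (RMS) distance between profiles centred on their own means. The closest to Rc3h1 were Chordc1 (RMS distance 0.0177), Mtf2 (0.0198) and Mterf (0.0218), and the closest to Rc3h2 were 1700025N23Rik (0.0288), Srsf5 (0.0327) and Fcho2 (0.0341). For Zc3h12c they were Snord15b (0.0528), Ptpn14 (0.0675) and Myof (0.0805). For Zfp36l1 they were Gm12657 (0.0367), Hyls1 (0.0391) and Hilpda (0.0476). With 4 libraries this likeness is a description of 4 values and carries no test.

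The machinery that the factors recruit was then listed. For comparison with these lists and those below, 1.70% of all tested genes were called and 13.3% had an unadjusted p under 0.05 in limma. None of the 19 tested genes of the CCR4-NOT and PAN2-PAN3 deadenylases was called in either direction, with 2 at an unadjusted p under 0.05 and a median log2 fold change of -0.01. The largest differences were 0.42 for Cnot10, a CCR4-NOT subunit (27.3 to 36.9 FPKM, adjusted p = 0.252 in limma with Benjamini-Hochberg adjustment), and -0.40 for Cnot6l, a catalytic subunit. Btg1, an antiproliferative adaptor of the complex, was the most abundant at 296 FPKM in WT and 322 FPKM in Ets1-/- cells, followed by its relative Btg2 at 132 and 168 FPKM. Of the 19 decapping and 5′ to 3′ decay genes 0 were called and 0 had an unadjusted p under 0.05 in limma, with a median of -0.07. The decapping enzyme Dcp2 had 5.65 FPKM in WT and 4.27 FPKM in Ets1-/- cells, and its activator Patl1 had 19.5 and 16.4 FPKM. Lsm4 and the helicase Ddx6 were the most abundant, with 133 and 84.5 FPKM in WT and 116 and 75.7 FPKM in Ets1-/- cells. Of the 16 RNA exosome genes 0 were called and 1 had an unadjusted p under 0.05. That gene, Exosc9, a core subunit, differed by -0.88 on the log2 scale (standard error 0.24, 19.0 to 10.2 FPKM, adjusted p = 0.193 in limma with Benjamini-Hochberg adjustment). The most abundant exosome genes were Exosc5, with 48.7 and 64.6 FPKM, and Exosc8, with 44.9 and 47.2 FPKM.

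Of the 23 regulators and partners of the factors, 0 were called, 2 had an unadjusted p under 0.05 (N4bp1 and Btrc, named after their values were seen) and the median was 0.03. Malt1, the protease that cleaves regnase and roquin proteins, had an FPKM of 63.3 and 66.2 in WT and of 73.3 and 42.8 in Ets1-/- libraries. The genotypes overlapped, with both extremes in Ets1-/- cells, as for Rc3h2. Ywhaz, a 14-3-3 protein of the kind that binds phosphorylated Zfp36, had means of 164 and 206 FPKM, and Btrc, a ubiquitin ligase subunit that acts on regnase, had means of 6.53 and 9.63 FPKM. Ywhae, another 14-3-3 gene, had means of 113 and 116 FPKM, and Smg1, a kinase of nonsense-mediated decay, had means of 41.9 and 31.6 FPKM. Among 19 other tested RNA stability proteins 0 were called and 1 had an unadjusted p under 0.05. Khsrp, which also destabilises AU-rich transcripts, showed the largest difference named from that list, -0.50 (standard error 0.13, 36.0 to 25.2 FPKM, adjusted p = 0.171 in limma with Benjamini-Hochberg adjustment). Celf1 followed with -0.32, and the most abundant were Pabpc1, the cytoplasmic poly(A)-binding protein, with 429 and 535 FPKM, and Pcbp1, with 196 and 202 FPKM.

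Transcripts reported elsewhere as bound or destabilised by the factors were taken from general knowledge and were not checked for targeting in these cells. For regnase and roquin targets, 16 of 20 were tested, 0 were called, 0 had an unadjusted p under 0.05 in limma, and the median was -0.08. Irf4, which drives plasma cell differentiation, had means of 60.3 and 34.1 FPKM (log2 fold change -0.85, standard error 0.38, adjusted p = 0.444 in limma with Benjamini-Hochberg adjustment), and Icosl, the ligand of Icos, had means of 205 and 164 FPKM. The cytokine genes Il6, Il12b and Il2 and the enzyme gene Ptgs2 were under the filter. Nfkbid, a nuclear IkappaB protein, had means of 92.3 and 70.3 FPKM, and Ctla4, an inhibitory receptor, had means of 1.90 and 3.50 FPKM (log2 fold change 0.63, standard error 0.32). For Zfp36 targets, a list that holds Zfp36 itself, 18 of 22 were tested, 1 was called, and the median was 0.18. At an unadjusted p under 0.05 stood 7 of the 18, against 13.3% of all tested genes, and they went both ways, with Dusp1, Fos, Ier3 and Bcl2 higher and Ccl3, Ccnd3 and Notch1 lower in Ets1-/- cells.

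The called target was Ccl3, a chemokine gene. Its FPKM was 7.37 and 9.05 in WT and 1.63 and 1.28 in Ets1-/- libraries, without overlap. Ccl3 fell by 1.90 on the log2 scale (standard error 0.17) with an adjusted p of 0.0144 in limma with Benjamini-Hochberg adjustment. The call was lost without Ets1-/- replicate 1 (adjusted p = 0.0533), without Ets1-/- replicate 2 (adjusted p = 0.0729) and without a filter on low values (adjusted p = 0.0565), all in limma with Benjamini-Hochberg adjustment, while the log2 difference stayed close, at -2.01, -1.80 and -1.90.

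**Figure D4:**
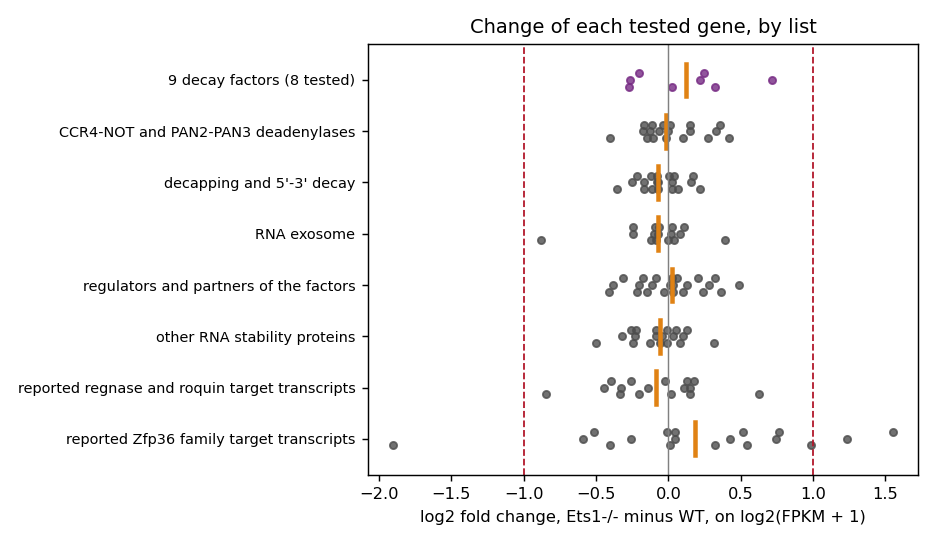
Log2 fold change of Ets1-/- over WT on the log2(FPKM + 1) scale for the tested decay factors (purple) and the tested genes of the decay machinery, regulator and target lists (gray), with 1 point per gene, an orange bar at the median of each row and dashed lines at a 2-fold change. Medians lie between -0.08 for the regnase and roquin targets and 0.18 for the Zfp36 targets, and Ccl3 is the point at -1.90.

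Since Zfp36 is itself an early response gene, it was set beside 20 immediate early genes, which cells switch on within minutes of a stimulus. Of these 0 were called. An unadjusted p under 0.05 in limma was found for 5 (Fos, Fosb, Egr1, Egr2 and Dusp1), against 13.3% of all tested genes. Of the 20, 19 had a log2 fold change above 0, with a median of 0.68. Both Ets1-/- values lay above both WT values for 12 of the 20, against 19.4% of all tested genes. Their summed FPKM was 3989 and 6444 in WT and 9065 and 9299 in Ets1-/- libraries, so WT replicate 2 lay between the others. Fos, a subunit of the AP-1 transcription factor, had an FPKM of 687 and 1283 in WT and of 2120 and 2307 in Ets1-/- libraries (log2 fold change 1.24, standard error 0.35, adjusted p = 0.204 in limma with Benjamini-Hochberg adjustment). Dusp1, a phosphatase of the kinases that control Zfp36 activity, had an FPKM of 136 and 244 in WT and of 603 and 481 in Ets1-/- libraries (log2 fold change 1.56, standard error 0.32, adjusted p = 0.109 in limma with Benjamini-Hochberg adjustment). Junb, another AP-1 subunit, had means of 776 and 1287 FPKM, and the largest differences were 2.06 for Atf3 (standard error 1.05) and 1.97 for Fosb (standard error 0.58). Without WT replicate 2 the log2 fold changes of Dusp1, Fos, Fosb and Egr1 were 1.97, 1.68, 2.80 and 2.03. Without WT replicate 1 they were smaller, at 1.14, 0.79, 1.14 and 1.11, so their size depended on the WT library kept. In limma with Benjamini-Hochberg adjustment, Dusp1 passed both thresholds with the replicate block (adjusted p = 0.0390) and robust variance estimation (adjusted p = 0.0465). Fos and Dusp1 are also on the list of Zfp36 targets, so the lists share members.

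Within each library, Zfp36 over Fos was 1.13 and 0.765 in WT and 0.466 and 0.520 in Ets1-/- libraries, and Zfp36 over Dusp1 was 5.68 and 4.02 in WT and 1.64 and 2.495 in Ets1-/- libraries. These ratios were also chosen after their values were seen, and nothing is read from their separation. The Zfp36 difference of 0.32 lay below the list median of 0.68 on the log2 scale, and the difference between Zfp36 and the list was not tested.

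**Figure D5:**
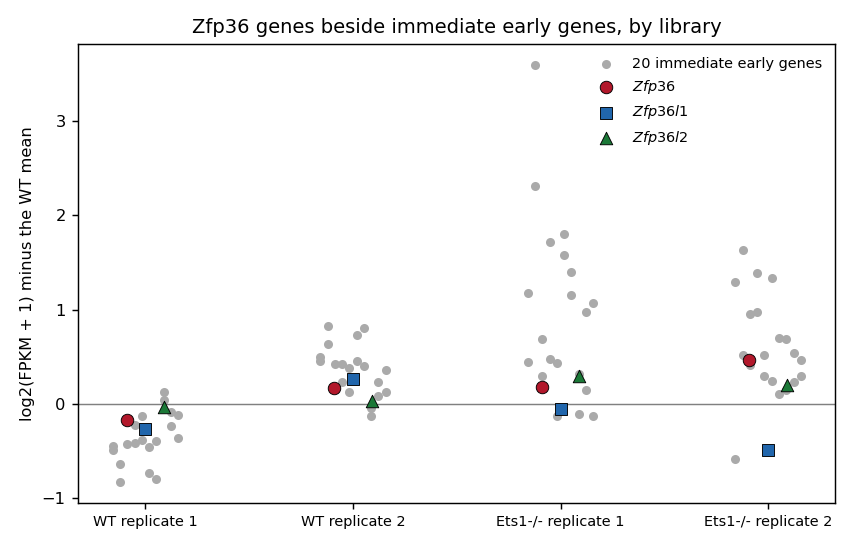
Level of 20 immediate early genes (gray) and of Zfp36, Zfp36l1 and Zfp36l2 (coloured) in each library, as log2(FPKM + 1) minus the gene's WT mean. Most gray points lie above 0 in the Ets1-/- libraries, with Zfp36 and Zfp36l2 slightly above 0 there and Zfp36l1 below it.

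Genes that hold the nonamer in the 3′ UTR, as 5 members do, were compared with the rest. Of 708 such tested genes 12 (1.69%) were called, 4 higher and 8 lower, with a median log2 fold change of -0.04. Of 8980 without it 140 (1.56%) were called, 74 higher and 66 lower, with a median of -0.01. By 3′ UTR length the order of the shares differed. Under 1000 bases, the class of Zfp36, 5.79% of 121 genes with the nonamer and 1.95% of 4314 without it were called, and from 1000 to under 2000 bases, the class of Zfp36l1 and Zfp36l2, the shares were 2.06% of 194 and 1.22% of 2375. From 2000 to under 5000 bases they were 0.308% of 325 and 1.204% of 2077. At 5000 bases or more, the class of both roquins, 0 of 68 genes with the nonamer and 0.935% of 214 without it were called by limma with Benjamini-Hochberg adjustment. The classes with the nonamer hold few called genes, and the shares were not tested against each other.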

How the data were processed

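Total RNA of sorted follicular B cells from 2 WT and 2 Ets1-/- samples was sequenced. Per the labels, the authors aligned reads to mm9 with TopHat2 2.0.13 and deposited FPKM values per gene symbol from Cuffdiff. The Cuffdiff version, library scaling and annotation are not given in the sources used here. The values are already scaled for gene length and library size, so count tests were not run.

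Of 23309 entries, 4 with repeated symbols were left out. Linear models used limma 3.58.1 in R 4.3.3 (trend on mean expression) on log2(FPKM + 1) for genes whose mean FPKM reached 1 in WT or Ets1-/- cells, with Benjamini-Hochberg adjustment. The study gives a range of read numbers over its samples but not the number of each library, so depth per library was estimated in relative terms only. Precision is given as SD, standard error and 95% interval. Gene positions and 3′ UTRs came from GENCODE M1, matched by symbol, with a 3′ UTR for 88.5% of tested genes.

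The members and lists were chosen with earlier results of these data known. Named from each decay, target and immediate early list were called genes, the 2 highest in WT and the 2 with the largest change, plus 3 profile neighbours for each variable member; Malt1, genes named only for an unadjusted p under 0.05, single markers and the pairs in ratios were added after their values were seen. Marker lists covered B, T, antibody-secreting, neutrophil, monocyte and erythroid cells. Alternatives covered the pseudocount, filter, scaling, variance estimate, replicate block and each replicate left out.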

Additional observations from a re-analysis of the deposited data

How the results depend on the processing

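No member was called under any of the 14 alternatives. Zc3h12a, Zc3h12c, Zc3h12d, Zfp36, Zfp36l1 and Zfp36l2 kept their direction in all 14, and the log2 fold change of Zc3h12c ranged from 0.25 to 1.17 and that of Zfp36 from 0.15 to 0.49. Rc3h1 turned to 0.16 without Ets1-/- replicate 2 (range -0.69 to 0.16 over left-out replicates), and Rc3h2 turned to -0.46 without Ets1-/- replicate 1 and to -0.24 without WT replicate 1 (range -0.46 to 0.51). Over all genes, 186 were called, against 75 without a filter, 305 with robust variance estimation and 130 to 144 with 1 replicate left out. Without a replicate, the lone library is assumed to vary like the other genotype. Of the genes on the decay, target and immediate early lists 1 was called, against 0 without a filter, 2 with robust estimation and 0 to 5 with 1 replicate left out, the 5 being without WT replicate 2. A replicate block in the fit gave 266 called genes and 2 called list genes. The labels give only replicate numbers and describe no pairing. The deviations of same-numbered libraries correlated at -0.21 across genes, which cannot show whether those libraries were prepared together. A crossed pairing, chosen after seeing the data, called 409 genes and 6 list genes. Under it Zc3h12c had an adjusted p of 0.0372 in limma with Benjamini-Hochberg adjustment. Its log2 fold change of 0.71 stayed under the 2-fold threshold, so it was not called. The causes were not tested. Read numbers are not in the files, so what depth limits was not measured.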

Other observations

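Markers of neighbouring B cell states were read beside the decay factors. Of the 8 marginal zone B cell markers 0 were called. An unadjusted p under 0.05 in limma was found for 4, against 13.3% of all tested genes, and they went both ways. Cr2, the complement receptor CD21, had means of 109 and 47.5 FPKM in WT and Ets1-/- cells (log2 fold change -1.28, adjusted p = 0.216 in limma with Benjamini-Hochberg adjustment), and the sort itself selected low CD21. Asb2 had a log2 fold change of -1.16 (adjusted p = 0.0564 in limma with Benjamini-Hochberg adjustment) and passed both thresholds without the variance trend, with robust estimation and with quantile normalization. The Cr2 difference was -1.82 without Ets1-/- replicate 1 and -0.73 without Ets1-/- replicate 2, so its size depended on the Ets1-/- library kept. Dtx1 differed by -0.65 and Mzb1 by 0.53 on the log2 scale. The summed level of the list, 378 and 454 FPKM in WT and 437 and 394 FPKM in Ets1-/- libraries, has Mzb1 as its largest term. Of the 7 tested markers of antibody-secreting cells 0 were called. Here 4 had an unadjusted p under 0.05 in limma, beside the same 13.3%, again both ways. Prdm1, which encodes Blimp1, differed by 0.66, Sdc1, which encodes CD138, by 1.08 and Ell2 by 0.46 on the log2 scale, while Creb3l2 differed by -0.41. Their sums, 182 and 204 FPKM against 159 and 168 FPKM, are carried by Igj, Irf4 and Xbp1. Of the 10 T cell markers 1 was called, Thy1, a surface glycoprotein. It had an FPKM of 17.4 and 16.2 in WT and of 3.38 and 3.39 in Ets1-/- libraries (adjusted p = 0.00658 in limma with Benjamini-Hochberg adjustment). The list went both ways, with 4 of the 10 log2 fold changes above 0. Both Ets1-/- values lay below both WT values for 4 markers and above for 1. That 1 was Cd3g, with 22.8 and 16.9 FPKM in WT and 25.5 and 32.9 FPKM in Ets1-/- libraries.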
